A study of Mus musculus with 3 samples.

Results

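The genes described here are the matrix proteases of the matrixin (MMP), ADAM, ADAMTS and ADAMTS-like families and their inhibitors, the TIMPs. They were taken by symbol as all genes named Mmp, Adamts, Adamtsl or Adam with a number, and Timp1 to Timp4. The rule found 78 genes, the same 78 in the 33696 features of the tendon libraries and the 35980 of the ganglion library. By role they were 6 collagenases and gelatinases, 11 stromelysins and other MMPs, 6 membrane-type MMPs, 9 proteolytic ADAMs, 3 ADAMs without the catalytic zinc site, 15 other ADAMs, most of them best known from testis, 7 ADAMTS aggrecanases, 3 ADAMTS procollagen N-proteinases, 9 other ADAMTS, 5 ADAMTS-like genes and 4 TIMPs. The 15 other ADAMs were not sorted by the zinc site, so the 3 need not be all the members that lack it.

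MMPs are zinc endopeptidases that cleave collagens, proteoglycans and other matrix proteins, and most are made as inactive precursors that other proteases activate. ADAMs sit in the membrane and shed the outer parts of other membrane proteins, while ADAMTS enzymes are secreted and trim procollagens, aggrecan and versican, and ADAMTS-like proteins keep the binding domains but have no protease domain. TIMPs bind the active site of MMPs, and Timp3 also inhibits several ADAMs and ADAMTS enzymes. In tendon, whose bulk is type I collagen, the balance of these enzymes and inhibitors sets how fast matrix is turned over, and in ganglia members of these families are known from Schwann cells, vessels and neurons.

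The study asked what sensory nerves do for tendon and profiled single cells of C57BL/6 mice with the Chromium droplet method. The neurectomy library came from Achilles tendons of 5 mice whose sural nerve had been cut 1 week before 4 weeks of dorsiflexion immobilisation, a model of tendon overstrain. The sham library came from 5 mice in which a nerve (the sciatic nerve, by the design text) was exposed through the biceps femoris but not cut and which were immobilised for the same 4 weeks, so no library holds tendon without immobilisation. The ganglion library came from 18 dorsal root ganglia (DRG) of 6 mice that had 5 µL of AAV-PHP.S-tdTomato injected into the left tendon sheath at 4 weeks of age and were killed 4 weeks later; the sample's treatment label calls the agent a lentivirus, and the texts differ on whether ganglia of both sides or of the injected side were taken. The mice of a group were pooled into 1 library, after digestion with collagenase and dispase, so there is no replicate, no test between groups is possible, and the intervals in parentheses below are exact 95% intervals that cover counting error only and not the spread between mice.

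The neurectomy, sham and DRG libraries held 25067, 32951 and 23566 barcodes with 79750679, 133570956 and 239515477 UMIs, of which 21992, 25306 and 22384 barcodes were kept for having no fewer than 500 genes and no more than 15% mitochondrial UMIs. UMIs of 4 Y-linked genes numbered 39 in the neurectomy library against 6366 in the sham library, and Xist was abundant in both (55528 and 61571 UMIs), so the sham mice included males and the neurectomy library held almost no male RNA. Group and sex are therefore mixed in this comparison, and ratios are also given among barcodes that carry Xist and no Y-linked UMI (Xist-only). The DRG library was male, with 49538 Y-linked and 23 Xist UMIs. Even there, only 13970 of the 22384 kept barcodes carried a Y-linked UMI and no Xist. A male barcode can thus lack Y-linked UMIs. Whether Xist-only barcodes of the sham library include male cells was not tested, so these ratios do not fully part group from sex. The tendon libraries shared 1001 barcodes (3.99% of the smaller), and in 730 of these the depths differed at least 20-fold.

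Barcodes were put in classes by marker genes that include no member: at least 3 markers of the class with a UMI and at least 2 more than of any other class. This placed 49.7%, 71.5% and 79.8% of the kept barcodes, and each class name means barcodes like that class by these markers. In the tendon libraries 7203 and 15256 barcodes were tenocyte-like in the neurectomy and sham library, 729 and 738 like Pi16-positive fibroblasts, 276 and 145 like other stromal fibroblasts, 792 and 507 like blood endothelium, 579 and 472 like lymphatic endothelium and 810 and 720 like macrophages. These 6 classes were compared. Synovial lining-like (142), Schwann-like (95) and skeletal muscle-like barcodes (139) were described in the neurectomy library only and mural-like barcodes (72) in the sham library only, since the other library held fewer than 50.

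The gates were not pure, and free RNA, doublets and mixed identity cannot be told apart in them. In the Pi16 fibroblast-like gate the synovial lining markers summed to 2909 and 3798 CPM in the neurectomy and sham library beside 3007 and 3771 CPM of the class's own markers. Of the lining markers Prg4 alone gave 2307 and 3359 CPM and the other 6 gave 602 and 439 CPM. Depth differed as well, with medians of 1717.5 and 9330.5 UMIs among macrophage-like and 2730 and 9344 among stromal fibroblast-like barcodes. Levels are the summed UMIs of a gene scaled to the summed UMIs of its class (CPM). They depend on transcript length and on where the chemistry primes, so a gene is compared between classes and libraries but not with another gene.

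Of the 78 members, 48 reached 10 CPM in at least 1 tendon class and 51 in at least 1 DRG class. In every described class, 17 did so under neurectomy, 11 under sham and 4 in the ganglia. The expressed set was nearly the whole of some roles and almost none of others: in the neurectomy library it held 4 of 4 TIMPs, 8 of 9 proteolytic ADAMs and 3 of 3 procollagen N-proteinases, but 2 of 6 collagenases and gelatinases and 1 of 15 other ADAMs. Mmp1a, the mouse counterpart of the human interstitial collagenase, gave 0 UMIs in all 3 libraries. A count of 3 UMIs over all kept barcodes would be 0.0386, 0.0233 and 0.0127 CPM in the neurectomy, sham and DRG library. Mmp8 and Mmp9 gave 11 and 28 UMIs under neurectomy and 15 and 40 under sham.

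The TIMPs were spread over the tendon classes in 4 different ways. Timp1, the inducible and freely soluble inhibitor, led in tenocyte-like barcodes at 714 CPM (705 to 724) in the neurectomy and 360.5 CPM (356 to 365) in the sham library. Its next class stood at 371 CPM (skeletal muscle-like) in the neurectomy and 279 CPM (stromal fibroblast-like) in the sham library, so the intervals did not touch, and macrophage-like barcodes were lowest of the 6 compared classes at 31.7 and 15.7 CPM. Timp2, which inhibits MMPs and also helps Mmp14 to activate Mmp2, was broad: it lay between 355 and 1489.7 CPM in the compared classes of the neurectomy library and between 246 and 1893 CPM in those of the sham library, lowest in blood endothelial-like and highest in tenocyte-like barcodes in both.

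Timp3, which binds to the matrix, was highest in lymphatic endothelial-like barcodes at 2412 CPM (2353 to 2473) and 2423 CPM (2372 to 2475) and lowest in macrophage-like barcodes at 111 and 35.4 CPM. Mural-like barcodes of the sham library held 2005 CPM. Timp4 was the restricted one, at 306 CPM (285 to 329) and 445 CPM (418 to 473) in blood endothelial-like barcodes. Its next class in the sham library, the mural-like one, stood at 128 CPM, tenocyte-like barcodes held 9.25 and 6.80 CPM, and both fibroblast-like classes held at most 2.13 CPM.

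**Figure D1:**
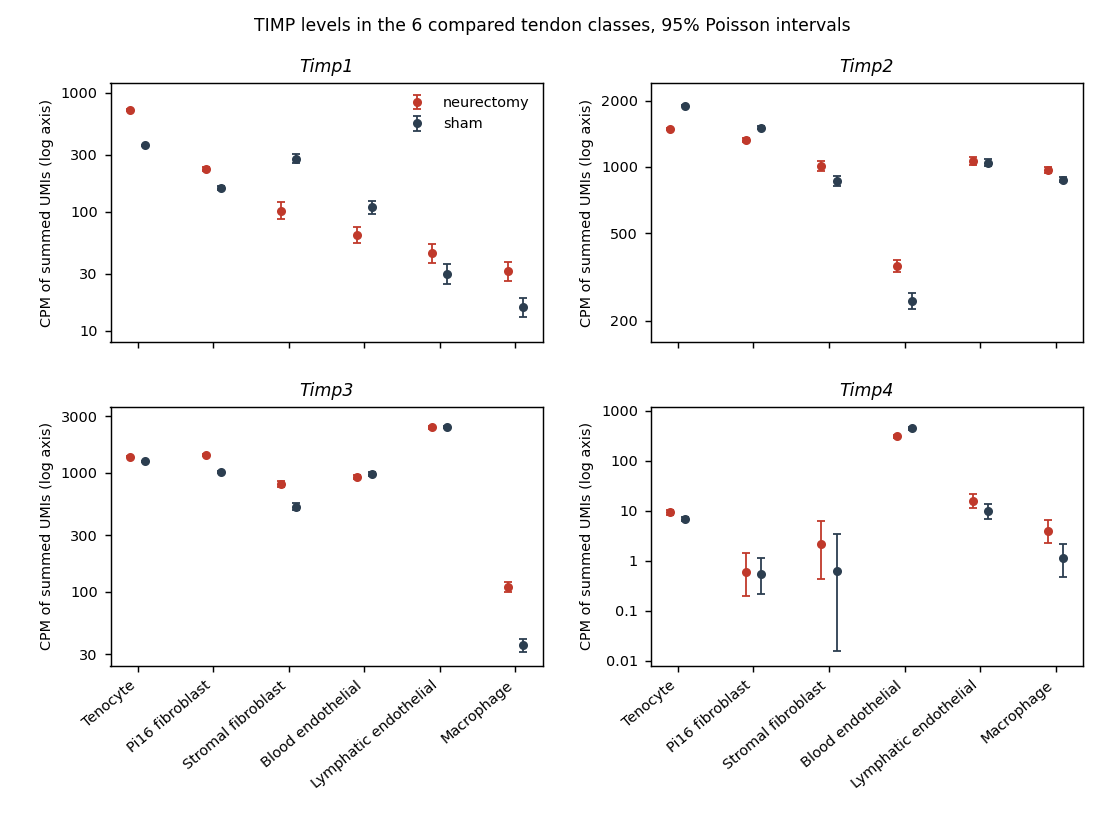
Levels of the 4 TIMP genes (y axis, CPM of summed UMIs, log axis) in the 6 compared tendon classes (x axis), with the neurectomy library in red and the sham library in dark blue and bars for exact 95% Poisson intervals. Timp1 is highest in tenocyte-like barcodes (714 and 360.5 CPM) and lowest in macrophage-like ones, Timp3 peaks in lymphatic and Timp4 in blood endothelial-like barcodes.

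Among the collagenases and gelatinases, Mmp2, the gelatinase of mesenchymal cells, was highest in stromal fibroblast-like barcodes at 615 CPM (575 to 657) in the neurectomy and 785 CPM (743 to 829) in the sham library. Pi16 fibroblast-like barcodes followed at 460.1 and 556 CPM and tenocyte-like barcodes at 259 and 321 CPM, an order that was the same in both libraries. Mmp13, the main collagenase of mouse skeletal tissue, was highest in macrophage-like barcodes of the neurectomy library, at 16.2 CPM (12.4 to 20.9), which held 61 of the 81 UMIs of that library. The sham library gave 111 UMIs, of which macrophage-like barcodes held 28.

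The stromelysins and other MMPs each had their own place. Mmp3 (stromelysin-1), which cleaves proteoglycans and activates procollagenases, led in stromal fibroblast-like barcodes of both libraries, with an interval that overlapped Pi16 fibroblast-like barcodes under sham. Mmp19 led in macrophage-like barcodes of the neurectomy library, at 129.9 CPM against 51.0 CPM in the next class, and in the sham library stood at 48.2 CPM there and 52.9 CPM in stromal fibroblast-like barcodes, whose intervals overlapped. Mmp23, a small membrane-anchored MMP, was highest in tenocyte-like barcodes at 43.8 CPM (41.5 to 46.2) and 47.0 CPM (45.4 to 48.7).

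Membrane-type MMPs split between mesenchymal and nerve or vessel classes. Mmp16 led in tenocyte-like barcodes at 83.1 CPM in the neurectomy library, where its interval overlapped that of Schwann-like barcodes (69.1 CPM), and at 91.1 CPM in the sham library. Mmp15 reached 121 CPM (87.1 to 163) in Schwann-like barcodes and 40.7 CPM in blood endothelial-like barcodes of the neurectomy library, and 28.0 CPM in the latter in the sham library. Elsewhere it was at most 3.63 CPM. Mmp14, the collagenase of the cell surface that also activates Mmp2, was at 26.9 to 191 CPM in the compared classes of the neurectomy library and led none.

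Of the proteolytic ADAMs, Adam10, a sheddase of Notch and cadherins, was highest in lymphatic endothelial-like barcodes at 472 CPM (446 to 499.7) and 478 CPM (456 to 502). Schwann-like barcodes of the neurectomy library were not apart from that level at 440.4 CPM (373 to 516). Adam8, a leukocyte ADAM, led in macrophage-like barcodes at 47.1 and 56.3 CPM, and the 43.6 CPM of skeletal muscle-like barcodes rested on 12 UMIs. Adam15 was about equal in macrophage-like (189 and 156 CPM) and blood endothelial-like barcodes (176 and 154 CPM).

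The 95 Schwann-like barcodes of the neurectomy library led for 7 members, among them 4 with intervals apart from every other class there. Adamts20 stood at 291 CPM (237 to 353) from 101 UMIs in 31 barcodes, with 3.63 CPM in the next class. Adam23, an ADAM without the zinc site that binds LGI proteins, stood at 199 CPM (155 to 251), and Adamts17 at 153 CPM (114 to 199.5), with Mmp15 as given above. The remaining ones, Adam11, Mmp17 and Mmp28, were between 11.5 and 25.9 CPM with intervals that overlapped another class.

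Blood endothelial-like barcodes led for Adamts9, a versicanase, at 952 CPM (914 to 991) and 563 CPM (532 to 594). They also led for Adamts18 at 16.3 and 16.2 CPM, where no other class exceeded 1.91 CPM. Adamts4, an aggrecanase, led there in the neurectomy library at 115 CPM, while in the sham library its 73.4 CPM (62.7 to 85.4) were within the interval of mural-like barcodes, 86.0 CPM (62.7 to 115). Adamts1, which also cleaves versican, was highest in the same class at 357 and 317 CPM but was at 10 CPM or more in every tendon class except macrophage-like barcodes of the sham library.

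The procollagen N-proteinases, which remove the amino propeptides of fibrillar procollagens, differed among themselves. Adamts3 led in tenocyte-like barcodes at 116 CPM (113 to 120.3) and 69.9 CPM (68.0 to 71.9), with 28.3 and 30.1 CPM in the next class. Adamts2 was high in tenocyte-like and both fibroblast-like classes, at 177 to 259 CPM in the neurectomy and 256 to 269 CPM in the sham library. Adamts14 stayed at or under 16.0 CPM outside mural-like barcodes, where it was at 44.0 CPM.

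Of the remaining ADAMTS and ADAMTS-like genes, the stromal fibroblast-like class led for Adamts12, which can cleave COMP, at 525 CPM (488 to 564) and 427 CPM (396 to 460.3). It led for Adamtsl3 at 558 CPM (519 to 598) and 408 CPM (377 to 439.9). Adamts16 and Adamts19 were highest in lining-like or Pi16 fibroblast-like barcodes. In the neurectomy library Adamts16 stood at 23.6 CPM (12.9 to 39.6) in synovial lining-like and 10.7 CPM (8.59 to 13.2) in Pi16 fibroblast-like barcodes, which overlapped. In the sham library Adamts16 stood at 14.2 CPM in Pi16 fibroblast-like barcodes, and any other class of either library held at most 3.63 CPM. Adamts19 stood at 33.7 CPM in lining-like and 5.36 CPM in Pi16 fibroblast-like barcodes of the neurectomy library. In the sham library it stood at 35.8 CPM in Pi16 fibroblast-like and 9.84 CPM in stromal fibroblast-like barcodes. Mural-like barcodes of the sham library led for 5 members, and the best separated was Adam22 at 134 CPM (104 to 169) against 25.9 CPM in the next class.

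Further leading members had smaller margins or lower levels. Adam33 was highest in stromal fibroblast-like barcodes of the neurectomy library at 53.1 CPM (41.8 to 66.6) and in Pi16 fibroblast-like barcodes of the sham library at 61.3 CPM (57.1 to 65.7), and in each case the other of these classes overlapped. Adamts10, which acts on fibrillin microfibrils, led in stromal fibroblast-like barcodes of the neurectomy library at 68.7 CPM (55.7 to 83.8), and Adamtsl4, a microfibril-binding protein, in Pi16 fibroblast-like barcodes of the sham library at 82.6 CPM (77.7 to 87.8). Adamts6 was nearly equal in tenocyte-like (209 CPM) and Pi16 fibroblast-like barcodes (204 CPM) of the sham library. Adam19 (meltrin beta) stood at 178 CPM (132 to 235) in skeletal muscle-like and 154 CPM in macrophage-like barcodes of the neurectomy library, which overlapped. Mmp28 led in blood endothelial-like barcodes of the sham library at 32.3 CPM (25.4 to 40.6), and Adamts15 in mural-like barcodes at 44.0 CPM (27.9 to 66.0).

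**Figure D2:**
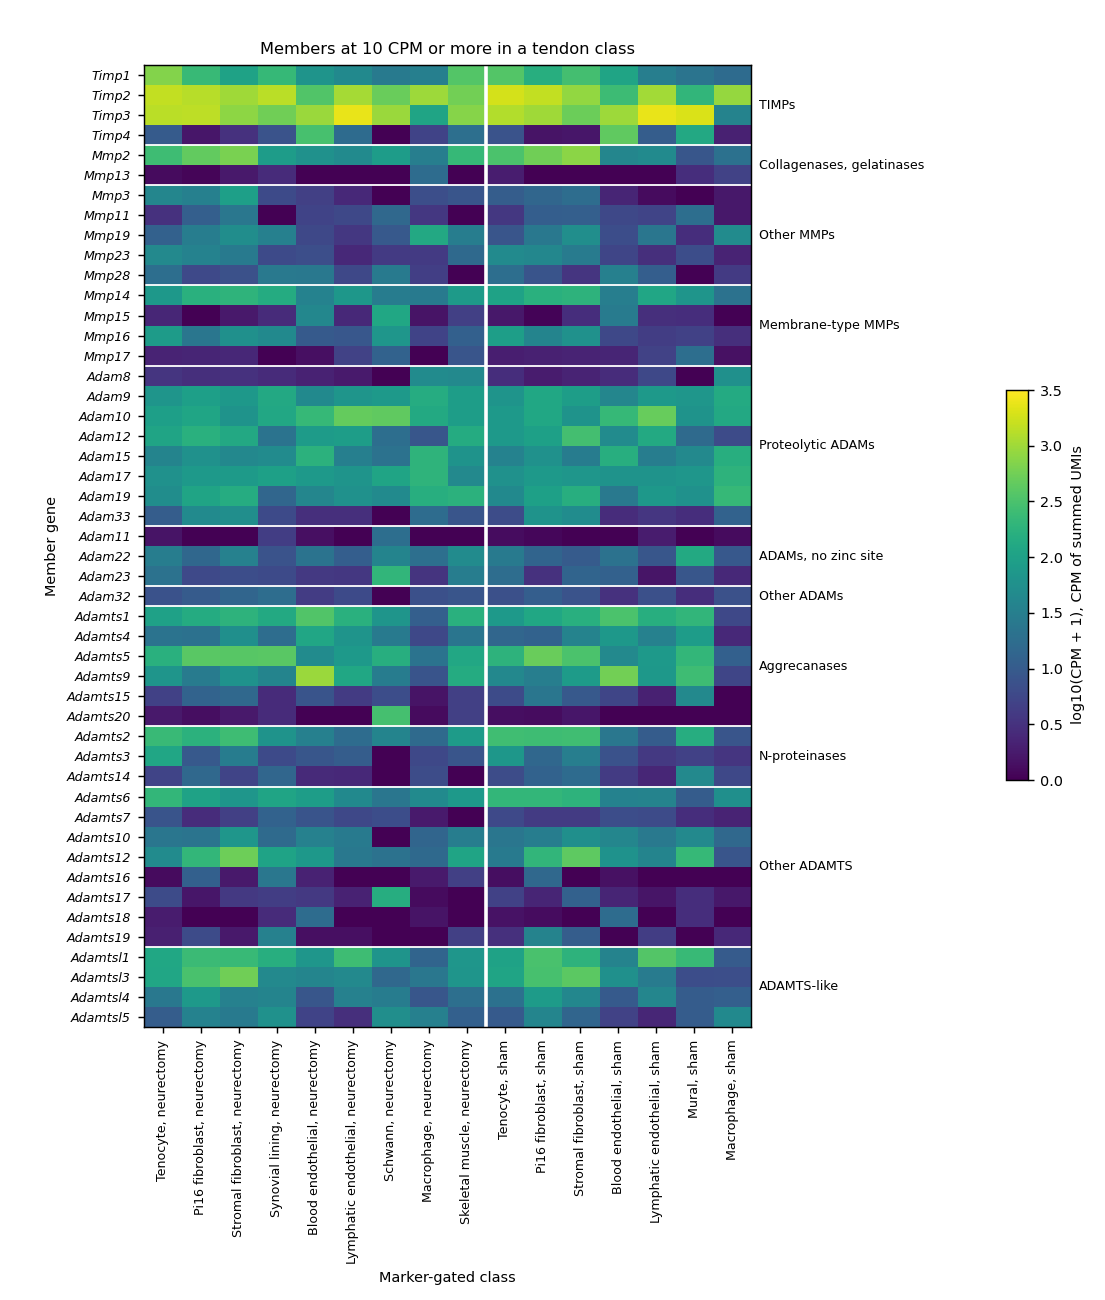
Levels of the 48 members that reached 10 CPM in a tendon class (rows, by role) in the described classes of the neurectomy library (left of the white line) and the sham library (right), coloured by log10 of CPM plus 1. Timp2 and Timp3 are bright nearly throughout, while Adamts9 stands out in blood endothelial-like and Adamts20 in Schwann-like barcodes.

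For the comparison of the tendon libraries, a member entered a class with at least 50 summed UMIs and 10 CPM in the higher library, and it was called past 2-fold when its ratio was at least 2 in either direction. The intervals of all members so called exclude a ratio of 1, and the shares of all genes given below use the ratio alone. This gave 173 pairs of a member and a class. Of these, 16 were past 2-fold higher in the neurectomy library and 5 lower. In tenocyte-like barcodes 1 of 30 members was higher, beside 1.11% of 8882 genes, and 0 were lower, beside 0.473%. In Pi16 fibroblast-like barcodes 1 of 36 was higher, beside 0.908% of 9141 genes, and 1 lower, beside 0.602%. Each of these counts is a single gene, and the shares are read no further.

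In stromal fibroblast-like barcodes 4 of 31 members (12.9%) were higher, beside 1.69% of 7563 genes, and 3 (9.68%) were lower, beside 2.17%. In macrophage-like barcodes 9 of 25 (36%) were higher, beside 2.89% of 9067 genes, and 0 were lower, beside 0.993%. Of these 9, only Timp1, Timp3 and Mmp19 were also at 10 CPM or more in the sham library. The others entered through the neurectomy library alone, where they were high, so their share is read no further. The same entry rule set the share of all genes. In blood endothelial-like barcodes 1 of 26 was higher, beside 1.58% of 9237 genes, and 0 lower, beside 0.411%. In lymphatic endothelial-like barcodes 0 of 25 were higher, beside 2.13% of 9419 genes, and 1 lower, beside 0.733%. Macrophage-like and stromal fibroblast-like barcodes thus held 16 of the 21 pairs. The median log2 ratio of the entered members was 0.44 in macrophage-like barcodes, beside -0.02 over all genes there. In the other 5 classes it lay between -0.16 (Pi16 fibroblast-like, all genes 0.01) and 0.20 (blood endothelial-like, all genes 0.01).

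**Figure D3:**
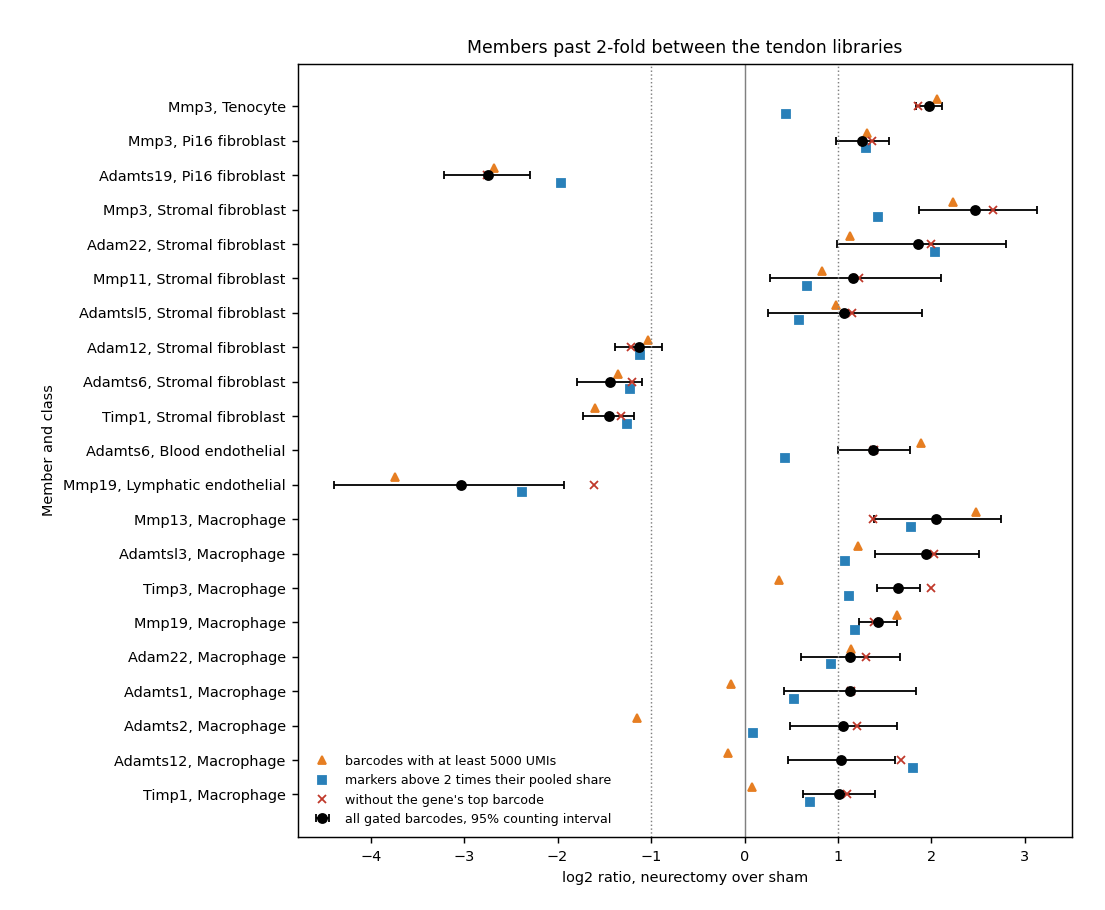
Log2 ratios of neurectomy over sham (x axis) for the 21 pairs of a member and a class past 2-fold (y axis), as black points with exact 95% counting intervals, beside the ratio among barcodes with at least 5000 UMIs (triangles), with markers counted only above 2 times their pooled share (squares) and without the barcode richest in the gene (crosses). Mmp3 lies right of 0 in tenocyte-like and both fibroblast-like classes under each setting shown, whereas Adamts1, Adamts2 and Adamts12 in macrophage-like barcodes lie left of 0 at 5000 UMIs.

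Mmp3 (ENSMUSG00000043613) was the member past 2-fold in the most classes. In tenocyte-like barcodes it stood at 38.9 CPM (36.7 to 41.2) in the neurectomy and 9.89 CPM (9.16 to 10.7) in the sham library, a log2 ratio of 1.98 (1.84 to 2.11). In Pi16 fibroblast-like barcodes it stood at 32.1 and 13.4 CPM, 1.26 (0.97 to 1.54). In stromal fibroblast-like barcodes it stood at 92.1 and 16.6 CPM, 2.47 (1.87 to 3.13). The neurectomy library was the higher one each time, and also among the barcodes in no class, at 40.6 against 18.7 CPM.

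Few barcodes carried Mmp3. A UMI was seen in 4.11% of the tenocyte-like barcodes of the neurectomy library and 1.90% of those of the sham library, beside 1.14% and 0.592% of blood endothelial-like barcodes, taken as a class that should lack the gene, at median depths of 1515, 1299.5, 1887 and 2373 UMIs. The richest single barcode held 14.0% of the tenocyte-class UMIs in the neurectomy and 6.65% in the sham library, and without it the log2 ratio was 1.86. The tenocyte value depended on the gate. Where a marker counted only above 2 times the UMIs expected from its share of the library, 1482 and 2653 barcodes stayed tenocyte-like and Mmp3 stood at 8.69 against 6.36 CPM, a log2 ratio of 0.45. Where barcodes with 3 markers of a second class were left out, it stood at 25.0 against 12.0 CPM, a log2 ratio of 1.06. Among Xist-only barcodes of both libraries it stood at 40.2 against 10.6 CPM, a log2 ratio of 1.92. Without the barcodes that the tendon libraries share, the log2 ratio was 1.67 in tenocyte-like and 1.60 in Pi16 fibroblast-like barcodes.

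In Pi16 fibroblast-like barcodes the same gates gave log2 ratios of 1.30 and 1.03. In stromal fibroblast-like barcodes the first gave 1.43, from 87.2 against 32.4 CPM. Counted by markers above 2 times their pooled share, the Mmp3 ratio was thus larger in both fibroblast-like gates than in the tenocyte-like one, and the difference between these ratios was not tested.

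**Figure D4:**
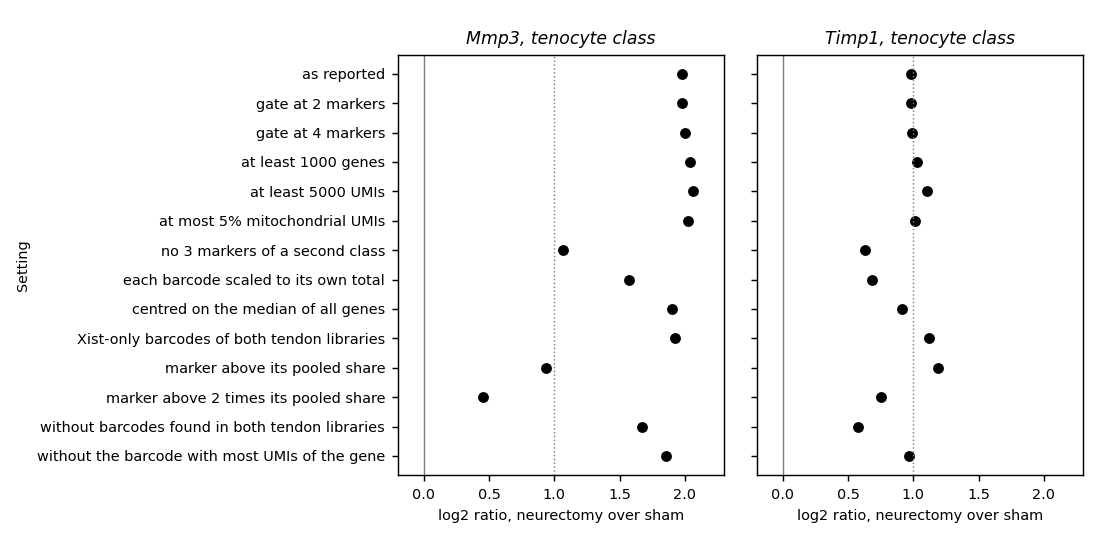
Log2 ratios of neurectomy over sham (x axis) for Mmp3 and Timp1 in tenocyte-like barcodes under each setting of the gate, filter and scaling (y axis), with the solid line at 0 and the dotted line at 2-fold. Mmp3 ranges from 0.45 with markers above 2 times their pooled share to 2.06 at 5000 UMIs, and Timp1 from 0.57 without shared barcodes to 1.19 with markers above their pooled share.

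The promoters of 3 members are shown, chosen after their values were seen: Mmp3, past 2-fold in the most classes, Mmp13, with the largest ratio of any member in macrophage-like barcodes, and Timp1, the inhibitor that led in tenocyte-like barcodes. Each is given as the 250 bases before the annotated start (RefSeq, GRCm38.p6, all on the plus strand). Capitals mark the letters TGANTCA, a form that AP-1 factors bind, which reads the same on both strands. No other form was searched. TGANTCA was found in 6.75% of the 32851 promoters of that length, counted by entry. It was found in 12 of the 48 members with an entry, counted by gene with a match in any entry, so these shares differ in unit and were not compared. It lies in Mmp3 (chr9:7445572-7445821) starting 46 bases and in Mmp13 (chr9:7272264-7272513) starting 35 bases before the start, and its letters are not in the window of Timp1 (chrX:20869916-20870165).
Mmp3: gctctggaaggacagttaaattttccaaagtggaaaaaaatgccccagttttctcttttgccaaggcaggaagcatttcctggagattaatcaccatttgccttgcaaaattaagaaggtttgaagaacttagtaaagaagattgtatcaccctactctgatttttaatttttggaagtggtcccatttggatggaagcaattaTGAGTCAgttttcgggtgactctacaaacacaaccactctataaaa
Mmp13: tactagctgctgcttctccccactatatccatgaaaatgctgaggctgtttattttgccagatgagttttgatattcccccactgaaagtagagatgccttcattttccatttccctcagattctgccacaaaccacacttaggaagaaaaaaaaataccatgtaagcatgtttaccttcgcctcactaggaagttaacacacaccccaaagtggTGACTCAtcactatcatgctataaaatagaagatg
Timp1: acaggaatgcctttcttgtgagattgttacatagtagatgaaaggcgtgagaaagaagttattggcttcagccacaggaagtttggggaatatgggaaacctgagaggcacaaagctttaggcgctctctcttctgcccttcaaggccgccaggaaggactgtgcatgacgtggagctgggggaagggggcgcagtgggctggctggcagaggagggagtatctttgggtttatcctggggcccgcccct

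Timp1 (ENSMUSG00000001131) differed between the libraries in opposite directions by class. In tenocyte-like barcodes its 714 against 360.5 CPM gave a log2 ratio of 0.99 (0.96 to 1.01), just under 2-fold. Leaving out the barcodes that the tendon libraries share took it to 0.57, from 473 against 317 CPM. In Pi16 fibroblast-like barcodes it stood at 229 and 157 CPM, 0.54 (0.45 to 0.63).

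In stromal fibroblast-like barcodes Timp1 was lower in the neurectomy library, at 102 CPM (86.0 to 120.1) against 279 CPM (254 to 306), -1.45 (-1.73 to -1.18). The tenocyte markers summed to 903 and 1665 CPM in the same barcodes, of which Thbs4 alone gave 449 and 1149 CPM and the other 7 together 454 and 517 CPM. Their part in the result was not tested. In blood endothelial-like barcodes Timp1 stood at 63.4 and 108 CPM, -0.77 (-1.07 to -0.48). In lymphatic endothelial-like barcodes the log2 ratio was 0.58 (0.19 to 0.97) from 115 and 107 UMIs, a direction that did not hold in barcodes without 3 markers of a second class (-0.53).

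Timp2 and Timp3 stayed under 2-fold in every compared class, except Timp3 in macrophage-like barcodes. Timp2 in tenocyte-like barcodes was at 1489.7 against 1893 CPM, -0.35 (-0.36 to -0.33), and its log2 ratios in the other 5 classes lay between -0.18 and 0.53. The latter, in blood endothelial-like barcodes, turned direction with markers above their pooled share (-0.16) and above 2 times it (-0.11). Timp3 lay between -0.07 in blood endothelial-like and 0.63 in stromal fibroblast-like barcodes, and at 0.12 (0.11 to 0.14) in tenocyte-like barcodes, where its direction turned with the stricter gate (-0.35). Timp4 in blood endothelial-like barcodes was at 306 against 445 CPM, -0.54 (-0.68 to -0.40). Without the shared barcodes Timp4 there was at -0.37, and in Pi16 fibroblast-like barcodes Timp1, Timp2 and Timp3 were at 0.33, -0.14 and 0.30.

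In macrophage-like barcodes, 9 members were past 2-fold higher in the neurectomy library, and 2 of them, Mmp19 and Mmp13, were ones that this class led in that library. Mmp19 (ENSMUSG00000025355) stood at 129.9 CPM (119 to 142) against 48.2 CPM (43.2 to 53.6), a log2 ratio of 1.43 (1.23 to 1.63), from 116 and 126 barcodes with a UMI. Among macrophage-like barcodes with at least 5000 UMIs it stood at 151 against 48.5 CPM, a log2 ratio of 1.64. Mmp13 (ENSMUSG00000050578) stood at 16.2 CPM (12.4 to 20.9) against 3.92 CPM (2.61 to 5.67), 2.05 (1.38 to 2.75), from 17 and 18 barcodes. The richest barcode held 57.4% of its UMIs in the neurectomy and 32.1% in the sham library, and without those barcodes it was at 6.94 against 2.67 CPM, 1.38 (0.47 to 2.31).

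The other 7 were members that tenocyte-, fibroblast- or vessel-like classes held at higher levels. Timp3 stood at 111 against 35.4 CPM, 1.64 (1.41 to 1.87). Timp1 stood at 31.7 against 15.7 CPM, 1.01 (0.63 to 1.40). Adamtsl3 stood at 23.2 against 6.02 CPM, 1.94 (1.40 to 2.51). Adam22, an ADAM without the zinc site, Adamts1, Adamts2 and Adamts12 had log2 ratios of 1.13, 1.12, 1.06 and 1.03 at levels between 4.76 and 18.1 CPM.

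Markers of other classes moved with these members. In the macrophage-like gate the summed tenocyte markers were at 547 CPM in the neurectomy and 248 CPM in the sham library. The stromal fibroblast markers were at 139.7 and 54.3 CPM, the synovial lining markers at 408 and 254 CPM and the Pi16 fibroblast markers at 195 and 173 CPM. Their part in the results was not tested. At a depth of at least 5000 UMIs the log2 ratio of Adamtsl3 was 1.22 and that of Adam22 1.14, while Timp3 was at 0.37, Timp1 at 0.08, Adamts1 at -0.15, Adamts12 at -0.18 and Adamts2 at -1.15. The last 3 turned direction there.

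Adamts19 (ENSMUSG00000053441) was the most different member of the Pi16 fibroblast-like class. It stood at 5.36 CPM (3.89 to 7.19) in the neurectomy and 35.8 CPM (32.6 to 39.2) in the sham library, a log2 ratio of -2.74 (-3.22 to -2.29), with a UMI in 26 and 80 barcodes. With markers counted only above 2 times their pooled share it stood at 6.98 against 27.3 CPM, a log2 ratio of -1.97. Among Xist-only barcodes its log2 ratio was -2.88. Synovial lining-like barcodes of the neurectomy library also held it, at 33.7 CPM (20.6 to 52.1), and of the lining markers in the Pi16 fibroblast-like gate, given above, Prg4 was lower in the neurectomy library while the other 6 together were higher. Their part in the result was not tested.

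In stromal fibroblast-like barcodes the members past 2-fold lower in the neurectomy library besides Timp1 were Adamts6 and Adam12. Adamts6 stood at 67.3 CPM (54.5 to 82.3) against 183 CPM (162 to 205), -1.44 (-1.79 to -1.10), and 1 sham barcode held 23.6% of the sham UMIs. Adam12 (meltrin alpha), a protease of mesenchymal and muscle cells, stood at 128 CPM (109.6 to 148) against 279 CPM (254 to 306), -1.13 (-1.39 to -0.88). Without the richest barcode these ratios were -1.20 and -1.21, so neither rested on that barcode.

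The members higher there besides Mmp3 rested on few UMIs. Adam22 stood at 33.3 against 9.22 CPM, 1.85 (0.99 to 2.80), from 47 and 15 UMIs. Mmp11 (stromelysin-3) stood at 23.4 against 10.5 CPM, 1.16 (0.28 to 2.10), and Adamtsl5 at 26.9 against 12.9 CPM, 1.06 (0.25 to 1.90). For the last pair the interval reached close to 0 on the log2 scale.

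In blood endothelial-like barcodes the 1 member past 2-fold was Adamts6, at 88.5 CPM (77.2 to 101) against 34.1 CPM (26.9 to 42.5), 1.38 (1.00 to 1.77). The tenocyte markers summed to 1213 and 782 CPM in the same barcodes, and with markers counted above 2 times their pooled share the ratio was 0.43; their part was not tested. In lymphatic endothelial-like barcodes Mmp19 was lower in the neurectomy library, at 2.73 CPM (1.10 to 5.63) against 22.5 CPM (17.8 to 28.0), -3.04 (-4.40 to -1.93), from 7 and 80 UMIs. A single sham barcode held 73.8% of the sham UMIs, and without the richest barcodes it was at 1.95 against 5.98 CPM, -1.61 (-3.38 to -0.17). Without the barcodes shared by the libraries the ratio was -1.58.

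With sums this large, many intervals excluded 0 whatever the size of the ratio. In tenocyte-like barcodes 17 of the 30 entered members, Mmp3 included, had intervals above 0, beside 43.8% of 8882 genes, 7 had intervals below, beside 19%, and 6 held 0. These counts are thus given against a background in which most genes also exclude 0. Adamts3 was among those above, at 116 against 69.9 CPM, 0.74 (0.67 to 0.80), and the other N-proteinase Adamts2 among those below, at 237 against 264 CPM, -0.16 (-0.20 to -0.12). Mmp2 and Mmp14 were also below, at -0.31 (-0.35 to -0.27) and -0.53 (-0.60 to -0.46). These intervals say nothing of the spread between mice.

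Other genes of matrix turnover were read from 8 lists of 71 genes, and in tenocyte-like barcodes 60 entered and 0 were past 2-fold in either direction. Beside a median log2 ratio of 0.07 over all genes, the list medians were -0.20 for protease substrates, -0.10 for procollagen processing and -0.05 for cathepsins and cystatins. The medians were 0.08 for crosslinkers, 0.09 for serine proteases, 0.12 for the plasminogen system and 0.30 for shedding cofactors. Other inhibitors and modulators had a median of 0.06 from only 2 entered genes, 1 with an interval above 0 and 1 below. Of the plasminogen system, whose protease plasmin can activate pro-MMPs, 5 of 6 entered genes had intervals above 0 and none below, beside the 43.8% and 19% of all genes that hold for each list here. Plau, the urokinase activator, stood at 48.9 against 27.1 CPM (0.85, 0.75 to 0.95), its receptor Plaur at 61.9 against 39.9 CPM (0.63, 0.55 to 0.72) and the inhibitor Serping1 at 687 against 628 CPM (0.13, 0.11 to 0.16). Of the cathepsins and cystatins, 2 of 12 were above and 6 below. Ctsk, the collagen-cleaving cathepsin K, stood at 269.7 against 461 CPM (-0.77, -0.81 to -0.74), the inhibitor Cst3 at 2570.1 against 4269.9 CPM (-0.73, -0.74 to -0.72) and the inhibitor Cstb at 90.4 against 75.5 CPM (0.26, 0.19 to 0.33). Plau and Plaur were thus higher and Ctsk lower in the neurectomy library, each by less than 2-fold. Of the listed genes, Comp was a gate marker of the tenocyte-like class. Ctsk, Acan, Htra4, Tspan15 and Dpp4 were markers of other tendon classes, so the gate itself bears on their levels in tenocyte-like barcodes.

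The serine proteases of the matrix were mixed, with 3 of 6 above and 2 below. Htra1, a matrix-degrading serine protease, stood at 239 against 337 CPM (-0.50, -0.54 to -0.46), Htra4 at 16.5 against 24.0 CPM (-0.54, -0.69 to -0.39) and Prss23 at 155 against 114 CPM (0.45, 0.39 to 0.50). Of the procollagen processing genes 2 of 7 were above and 5 below, with the prolyl hydroxylase subunits P4ha1 at 376 against 567 CPM (-0.59, -0.62 to -0.56) and P4ha2 at 16.1 against 19.5 CPM (-0.27, -0.42 to -0.12) and the procollagen C-proteinase Tll1 at 11.0 against 7.66 CPM (0.52, 0.32 to 0.72). Of the other inhibitors and modulators, Reck, a membrane-anchored MMP inhibitor, stood at 116 against 167 CPM (-0.53, -0.59 to -0.48) and Sparcl1 at 93.5 against 59.2 CPM (0.66, 0.59 to 0.73). The convertases, tetraspanins and other cofactors of shedding had 6 of 8 above and none below, with the proprotein convertases Pcsk5 at 118 against 79.7 CPM (0.56, 0.50 to 0.62) and Pcsk6 at 102 against 78.9 CPM (0.37, 0.30 to 0.43) and the tetraspanin Tspan5 at 231 against 167 CPM (0.47, 0.42 to 0.51).

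Of the substrates 2 of 11 were above and 8 below, beside 43.8% and 19% of all genes. Versican (Vcan), a substrate of the versicanases, was one of those above at 569.9 against 337 CPM (0.76, 0.73 to 0.79), while aggrecan (Acan) stood at 97.4 against 141 CPM (-0.54, -0.60 to -0.48) and type I collagen (Col1a1) at 35745 against 50508 CPM (-0.50, -0.50 to -0.50). Of the crosslinking enzymes 4 of 8 were above and 3 below, with Loxl4 at 28.2 against 19.5 CPM (0.53, 0.41 to 0.66), Plod1 at 116 against 146 CPM (-0.34, -0.39 to -0.28) and Loxl2 at 156 against 195 CPM (-0.32, -0.37 to -0.27). In macrophage-like barcodes 10 of 47 entered genes of these lists were past 2-fold higher and 0 lower, beside 2.89% and 0.993% of all genes there. As given above, tenocyte and stromal fibroblast markers were also higher in this gate in the neurectomy library, and its depth was lower. Their part in this count was not tested. The other 4 classes had at most 5 higher and 3 lower. The 5 higher, in lymphatic endothelial-like barcodes, were 3 of 10 entered substrates, 1 of 6 plasminogen genes and 1 of 6 crosslinkers, beside 2.13% of all genes. The 3 lower, in stromal fibroblast-like barcodes, were 2 of 6 plasminogen genes and 1 of 10 substrates, beside 2.17% of all genes.

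In the ganglia Timp1 and Timp2 were highest in fibroblast-like barcodes, Timp3 in blood endothelial-like and Timp4 in mural-like barcodes. Timp3 was highest in blood endothelial-like barcodes at 2233 CPM (2195 to 2272), followed by myelinating Schwann-like (1906 CPM), mural-like (1559.8 CPM) and non-myelinating Schwann-like barcodes (1450.1 CPM), and neuron-like barcodes held 30.1 CPM. Timp2 was highest in fibroblast-like barcodes at 689 CPM (670.4 to 708) and was at 346 CPM in neuron-like barcodes. Timp1 led in fibroblast-like barcodes at 161 CPM (152 to 170.2), with non-myelinating Schwann-like barcodes at 118 CPM (100.4 to 137). Timp4 led in mural-like barcodes at 48.9 CPM (38.0 to 62.0), and blood endothelial-like barcodes gave 0 UMIs, with an interval up to 0.642 CPM.

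Mmp8 and Mmp9 were highest in neutrophil-like barcodes of the ganglia, a class with 131 barcodes there and only 1 and 3 in the neurectomy and sham library. Mmp8, the neutrophil collagenase, stood at 1399.7 CPM (1280.1 to 1527) with a UMI in 67.9% of these barcodes, beside 0.170% of neuron-like barcodes, at median depths of 1832 and 47735 UMIs. Mmp9, gelatinase B, stood at 1183 CPM (1073 to 1301) with a UMI in 89.3% beside 0.443%. Adam8 and Mmp25 (leukolysin), a GPI-anchored MMP of leukocytes, led in the same barcodes at 253 and 63.9 CPM.

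Macrophage-like barcodes of the ganglia led for Adam17, the sheddase of TNF, at 178 CPM (158 to 200.1). They also led for Mmp19 at 96.9 CPM (82.3 to 113) and for Mmp13 at 44.4 CPM (34.8 to 56.0), the latter from 23 barcodes. Fibroblast-like barcodes were next for both, but 1 barcode held 97.6% of their Mmp13 UMIs. Mmp12, macrophage elastase, was at 10.5 CPM from 6 barcodes.

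Fibroblast-like barcodes of the ganglia led for 13 members, more than any other DRG class. Mmp2 stood at 290.5 CPM (278 to 303) with 11.6 CPM in the next class, Mmp14 at 187 CPM (178 to 198) and Adamts2 at 175 CPM (165 to 184). Mmp3 was at 10.3 CPM from 76 UMIs in 22 barcodes. Of the non-myelinating Schwann markers, Apod alone gave 20668 CPM in this gate and the other 7 together 523 CPM, beside 27996 CPM of its own markers.

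Adamts1, Adamts4 and Adamts9 of the aggrecanase and versicanase group were highest in vessel-like classes. Mural-like barcodes held Adamts1 at 2728 CPM (2642 to 2816) and Adamts4 at 490.4 CPM (454 to 529), with blood endothelial-like barcodes next at 1183 and 53.1 CPM. Adamts9 was at 2051 CPM (2015 to 2089) in blood endothelial-like and 1942 CPM (1869 to 2016) in mural-like barcodes, whose intervals overlapped. Every other class was at most 154 CPM.

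Glia-like classes differed from one another, though their gates were mixed. In non-myelinating Schwann-like barcodes the satellite glia markers summed to 3072 CPM beside 7137 CPM of the class's own markers. In satellite glia-like barcodes the non-myelinating Schwann markers summed to 2948 CPM beside 17032 CPM. Adamts5, the main aggrecanase of mouse cartilage, led in satellite glia-like barcodes at 517 CPM (507 to 528), with 188 CPM in non-myelinating Schwann-like barcodes. Adamts17 and Adamts18 led in satellite glia-like barcodes too, at 128 and 25.9 CPM. Adam10 led in myelinating Schwann-like barcodes at 514 CPM (503 to 524), and Adam23 and Adamts20 in non-myelinating Schwann-like barcodes at 401 CPM (369 to 436) and 113 CPM (95.7 to 132). Each of these 6 had an interval apart from the next class. For Adamts20 that class was myelinating Schwann-like, at 83.4 CPM, and for Adamts17 it was non-myelinating Schwann-like, at 62.5 CPM.

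Further members led a class of the ganglia. Mmp15, Adamtsl5 and Mmp28 led in myelinating Schwann-like barcodes at 75.5, 68.7 and 23.9 CPM. Adam15 and Adamtsl1 led in blood endothelial-like barcodes at 99.1 and 169 CPM. Adamts8 led in mural-like barcodes at 30.2 CPM. In fibroblast-like barcodes Adamts3, Adam12, Mmp23 and Adam32 stood at 69.5, 42.1, 36.8 and 19.4 CPM. Adamts6 reached 162 CPM (115 to 221) in T and NK-like barcodes from 39 UMIs. The satellite glia leads Adamts15 and Adamts7 were at 25.0 and 10.5 CPM, and the first overlapped mural-like barcodes. Adam3, a sperm ADAM, was highest in monocyte-like barcodes at 15.2 CPM from 6 UMIs. Mmp17, Mmp28, Adam3, Adam33, Adamts10 and Adamtsl4 also overlapped their next class.

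Neuron-like barcodes led for 4 members. Adam22 stood at 127 CPM (125 to 129) and Adam11 at 56.9 CPM (55.6 to 58.2). Mmp16 stood at 44.4 CPM (43.3 to 45.5) and Mmp24 at 27.3 CPM (26.4 to 28.2). Adam22 and Adam11 lack the catalytic zinc site, and Adam22 is a receptor of LGI proteins at synapses and axons, while Mmp24 is a membrane-type MMP known from neurons. All 4 had intervals apart from the next class.

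Within the neurons 5 subtypes were gated by markers, and 12 members led 1 of them, 10 with intervals apart from the next subtype. Adam23 stood at 424 CPM (394 to 454) in the 59 large neurofilament-like barcodes, against 86.8 CPM in peptidergic-like ones. In C-LTMR-like barcodes (C-fibre low-threshold mechanoreceptors) Adamts9 stood at 76.3 CPM against 10.7 CPM in the next subtype, Adamts3 at 55.8 against 17.7 CPM and Mmp17 at 23.5 against 9.65 CPM. Mmp16 led in peptidergic-like barcodes at 94.5 against 28.2 CPM, and Mmp25 in Mrgprd-like barcodes at 34.6 against 24.6 CPM. Timp2 and Adamts6 led in large neurofilament-like barcodes at 758 and 17.7 CPM, and Adam8 and Adamts19 in itch-like barcodes at 14.9 and 11.5 CPM.

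**Figure D5:**
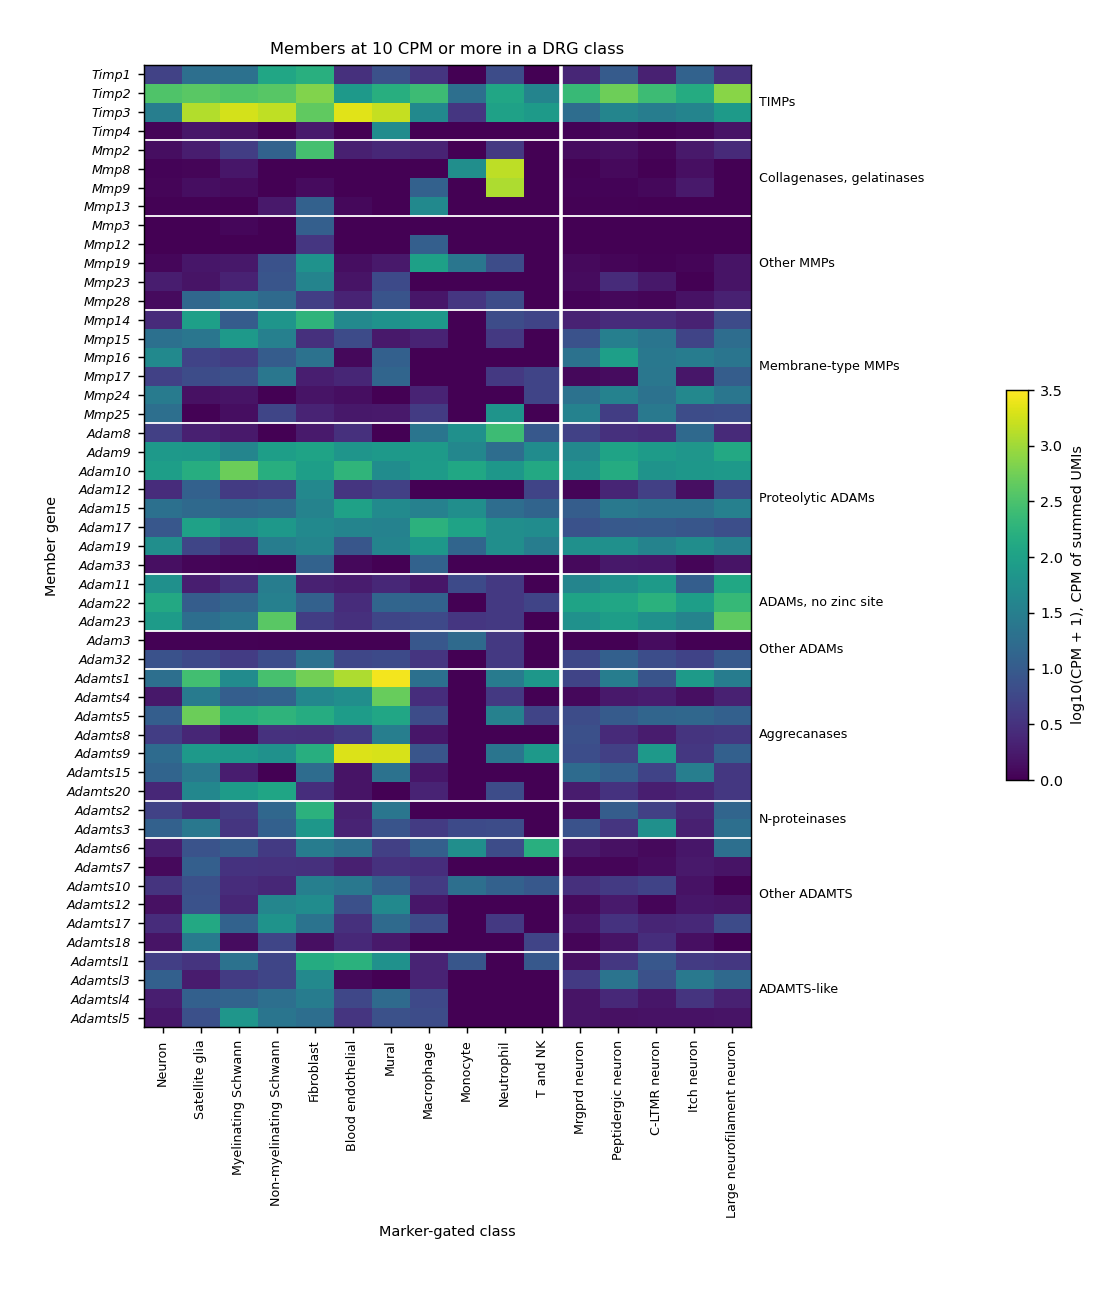
Levels of the 51 members that reached 10 CPM in a DRG class (rows, by role) in the gated classes, with the 5 neuron subtypes right of the white line, coloured by log10 of CPM plus 1. Mmp8 and Mmp9 are bright in neutrophil-like barcodes, Adamts1 and Adamts9 in blood endothelial- and mural-like barcodes and Adam23 in non-myelinating Schwann-like and large neurofilament-like barcodes.

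Set side by side, several members had the same class in tendon and ganglion. Mmp2, Mmp3, Adamts12 and Adamtsl3 led in stromal fibroblast-like barcodes of both tendon libraries and in fibroblast-like barcodes of the ganglia, although the Adamts12 level of 48.9 CPM in the latter overlapped mural-like barcodes at 44.6 CPM. Adamts9 was highest in blood endothelial-like barcodes of all 3 libraries, and Adam23 and Adamts20 in Schwann-like barcodes of the neurectomy library and non-myelinating Schwann-like barcodes of the ganglia. Mmp13 and Mmp19 were highest in macrophage-like barcodes of the neurectomy and DRG libraries.

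Other members changed place. Timp4 was at 306 and 445 CPM in blood endothelial-like barcodes of the tendon libraries, but led in mural-like barcodes of the ganglia. Adamts18 led in blood endothelial-like barcodes of both tendon libraries (16.3 and 16.2 CPM) and stood at 1.57 CPM there in the ganglia, where satellite glia-like barcodes led. Adam22 led in mural-like barcodes of the sham library (134 CPM) and was at 12.9 CPM in mural-like barcodes of the ganglia. No test of these differences between tissues was possible with 1 library each. The DRG library was male while the tendon libraries were mostly not. Its mice were injected with the vector and have no immobilisation listed, and its features numbered 35980 against 33696. Tissue, sex, treatment and gene annotation therefore cannot be told apart.

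Of the 78 members, 24, 23 and 18 had fewer than 50 UMIs in the neurectomy, sham and DRG library, and 9, 7 and 6 had 0. Mmp1a, Adam20 and Adam39 gave none in any library. Such counts limit only what these depths could detect.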

How the data were processed

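Gene by barcode matrices of UMI counts were deposited, 1 per library, and per the file headers were written by Cell Ranger 8.0.1. The submitters' processing notes name Cell Ranger, mm10 and GRCm39 without a role, so no coordinates were taken from the files. From the counts, barcodes were filtered and gated as described, with no doublet caller beyond the lead of 2 markers, and UMIs were summed per class and scaled to the class total, which weights deep barcodes. DRG genes were matched by symbol, and 5 markers had no match there. Levels have exact Poisson intervals in classes of at least 50 barcodes and ratios exact conditional intervals in classes of at least 100, with a count of 0 set to a floor of 3. With 1 library per group no p-value is possible. The text names Timp1 to Timp4, every member past 2-fold, members leading a class (highest there, at least 10 CPM and 3 times the median class) and up to 3 genes per pathway list with the largest tenocyte ratio; Mmp1a, Adam20 and Adam39, at 0 UMIs, were named after their values were seen. The members and lists were chosen with earlier results of these data known. Of 14 alternatives, 4 were chosen after seeing the data. Scripts were tested on simulated data. Python 3.11.15, numpy 2.4.6, scipy 1.17.1, pandas 2.3.3 and matplotlib 3.10.9 were used.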

Additional observations from a re-analysis of the deposited data

How the results depend on the processing

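No paired analysis was possible because there is 1 library per group. The count of pairs past 2-fold higher in the neurectomy library was 11 to 20 over the alternatives, except with entry at 10 summed UMIs, where 37 were higher and 19 lower because more pairs entered. The count lower was 3 without barcodes carrying 3 markers of a second class and 3 among Xist-only barcodes, both of which left the stromal fibroblast-like class below 100 barcodes, and 9 with markers above 2 times their pooled share. Over all alternatives 356 of 476 single ratios were close to the reported value, 110 moved and 10 reversed. This share differed by setting. Gates at 2 and at 4 markers each kept 38 of 38 close. Leaving out barcodes with a second class kept 13 of 29, and scaling each barcode to its own total kept 20 of 38. Markers above their pooled share kept 19 of 38, and above 2 times it 17 of 38. The cause of the 10 reversals was not tested. At 5000 UMIs or more these were, in macrophage-like barcodes, Adamts1 (-0.15), Adamts12 (-0.18) and Adamts2 (-1.15). Timp1 in lymphatic endothelial-like barcodes reversed without a second class (-0.53) and with each barcode scaled to its own total (-0.091). Timp3 in tenocyte-like barcodes reversed without a second class (-0.20), with markers above 2 times their pooled share (-0.35) and without shared barcodes (-0.0038). Timp2 in blood endothelial-like barcodes reversed with markers above their pooled share (-0.16) and above 2 times it (-0.11). The pooled-share, shared-barcode and richest-barcode settings were chosen after seeing the data. Shallow classes limit low members: a Schwann-like or mural-like level can rest on a few UMIs.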
